A study of Homo sapiens with 3 samples.

Results

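The genes described here are 49 genes of mitosis and chromosome segregation, named by symbol, from a table of 15625 genes measured by RNA-seq in the human colorectal cancer cell line HCT116. All 49 were in the table, and all passed the filter of a mean FPKM of at least 1 that left 11216 genes for testing. FPKM counts sequenced fragments per kilobase of a gene relative to library depth, and the lowest mean of any of the 49 was 5.90 FPKM. There were 2 libraries in which an shRNA targeted circRAPGEF5, the circular RNA that carries the name of the gene RAPGEF5 (knockdown libraries 1 and 2), and 1 library with a control shRNA. Cells of all 3 libraries received a purchased shRNA system, carried the genotype label MT, which the labels do not explain, and were collected at 36 or 48 h, with no record of which library had which time. The labels leave unsaid whether the knockdown pair came from different hairpins or cultures, so every p-value rests on library-to-library spread that may be purely technical.

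Cells enter mitosis when the kinase CDK1, bound to a B-type cyclin, is switched on by CDC25 phosphatases. Condensins then compact the chromosomes, kinesin motors build the spindle, and kinetochores tie chromosomes to it while the spindle checkpoint holds back the anaphase-promoting complex (APC/C), a ubiquitin ligase that later frees separase to split sister chromatids. Most of these genes are transcribed late in the cell cycle, through promoters that bind the MuvB core with B-MYB and FOXM1, and their summed mRNA is widely read as a measure of proliferation in tumour cells.

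If the values come from whole reads, at least 14832142 and 15758794 lay behind them in knockdown libraries 1 and 2 and 14632390 in the control. Among the 49 genes the fewest such reads, at least 159, 211 and 363 in the same libraries, belonged to CENPA, so the relative counting error was at most 7.93% for any of them. This covers counting error only. The 7 colorectal epithelial markers in the table summed to 2552 and 3882 FPKM in the knockdown libraries, 111.6% and 169.8% of the 2286 FPKM in the control. Nearly all of this sum was keratin: KRT8 was at 1084 and 1694 FPKM against 1031 FPKM, KRT18 at 652 and 885 FPKM against 478 FPKM, and KRT19 at 622 and 1079 FPKM against 563 FPKM, each above the control in both libraries. The adhesion molecule EPCAM was at 170.0 and 191 FPKM against 176 FPKM, and the cadherin CDH1, below the control in both, at 20.3 and 26.7 FPKM against 33.1 FPKM. The intestinal transcription factor CDX2 was at 3.40 and 5.61 FPKM against 4.24 FPKM, and LGALS4 was below 1 FPKM in every library. Limma called 0 of the 6 that passed the filter, and the part of these markers in the values of the mitotic genes was not tested. The pan-leukocyte marker PTPRC was at 0 and 0.00901 FPKM against 0 FPKM. The other endothelial and fibroblast genes in the table were below 1 FPKM in every library, apart from COL1A1, at 4.64 and 8.38 FPKM against 13.4 FPKM. The 5 leukocyte genes in the table summed to 3.84 and 9.70 FPKM against 2.41 FPKM, most of it CD68, at 3.55 and 7.50 FPKM against 1.30 FPKM. The linear host gene RAPGEF5 was at 1.33 and 2.73 FPKM against 1.98 FPKM, a value that does not measure the circular RNA and so cannot check the knockdown.

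Most mitotic genes were lower in both knockdown libraries than in the control. This held for 44 of the 49 genes (89.8%), while 37.6% of all genes tested lay below the control in both libraries. None of the 49 lay above it in both, against 31.7% of all genes, and 5 lay on opposite sides. Their median log2 difference of FPKM + 1 was -0.59 (-0.73 in library 1 and -0.53 in library 2), against -0.05 for all genes tested (-0.04 and -0.04). The 49 genes were chosen with earlier results of these data known, so these contrasts and those below are descriptions, not independent support. In these bulk libraries, fewer cells in G2 and mitosis and less of these mRNAs per cell cannot be told apart.

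At least 1.5-fold lower in both libraries, on FPKM + 1, were 18 of the 49 (36.7%), against 7.4% of all genes. Among the 8198 genes with a mean of at least 5 FPKM, a level that all 49 exceeded, 32.8% were below the control in both libraries and 5.89% at least 1.5-fold. The count of 18 fell to 12 with a pseudocount of 5 (3.09% of all genes) and to 12 under median-ratio rescaling (5.55% of all genes), and was 21 under quantile normalization (6.21%). Library 1 alone was below the control in 49 of the 49, against 52.9% of all genes, and at least 1.5-fold lower in 33, against 17.6%. Library 2 alone was below it in 44, against 53% of all genes, and at least 1.5-fold lower in 21, against 17.4%. At least 2-fold lower in both were 5 (10.2%), against 1.7%. These 5 were MKI67, CENPF, BIRC5, SPC24 and NUSAP1. The summed level of the 49 genes was 1286 and 1564 FPKM in knockdown libraries 1 and 2, against 2126 FPKM in the control. No single gene passed the test: limma with Benjamini-Hochberg adjustment called 0 of the 49, with a lowest adjusted p of 0.494 for BIRC5, and 0% of all genes on the lower side. An unadjusted limma p under 0.05 was reached by 10 of the 49 (20.4%), all lower, against 3.99% of all genes on the lower side. An exact permutation of 1 control against 2 knockdown libraries has 3 splits and cannot go below p = 0.33. Both libraries are set against the same lone control, so their values are given side by side and not as independent repeats.

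**Figure D1:**
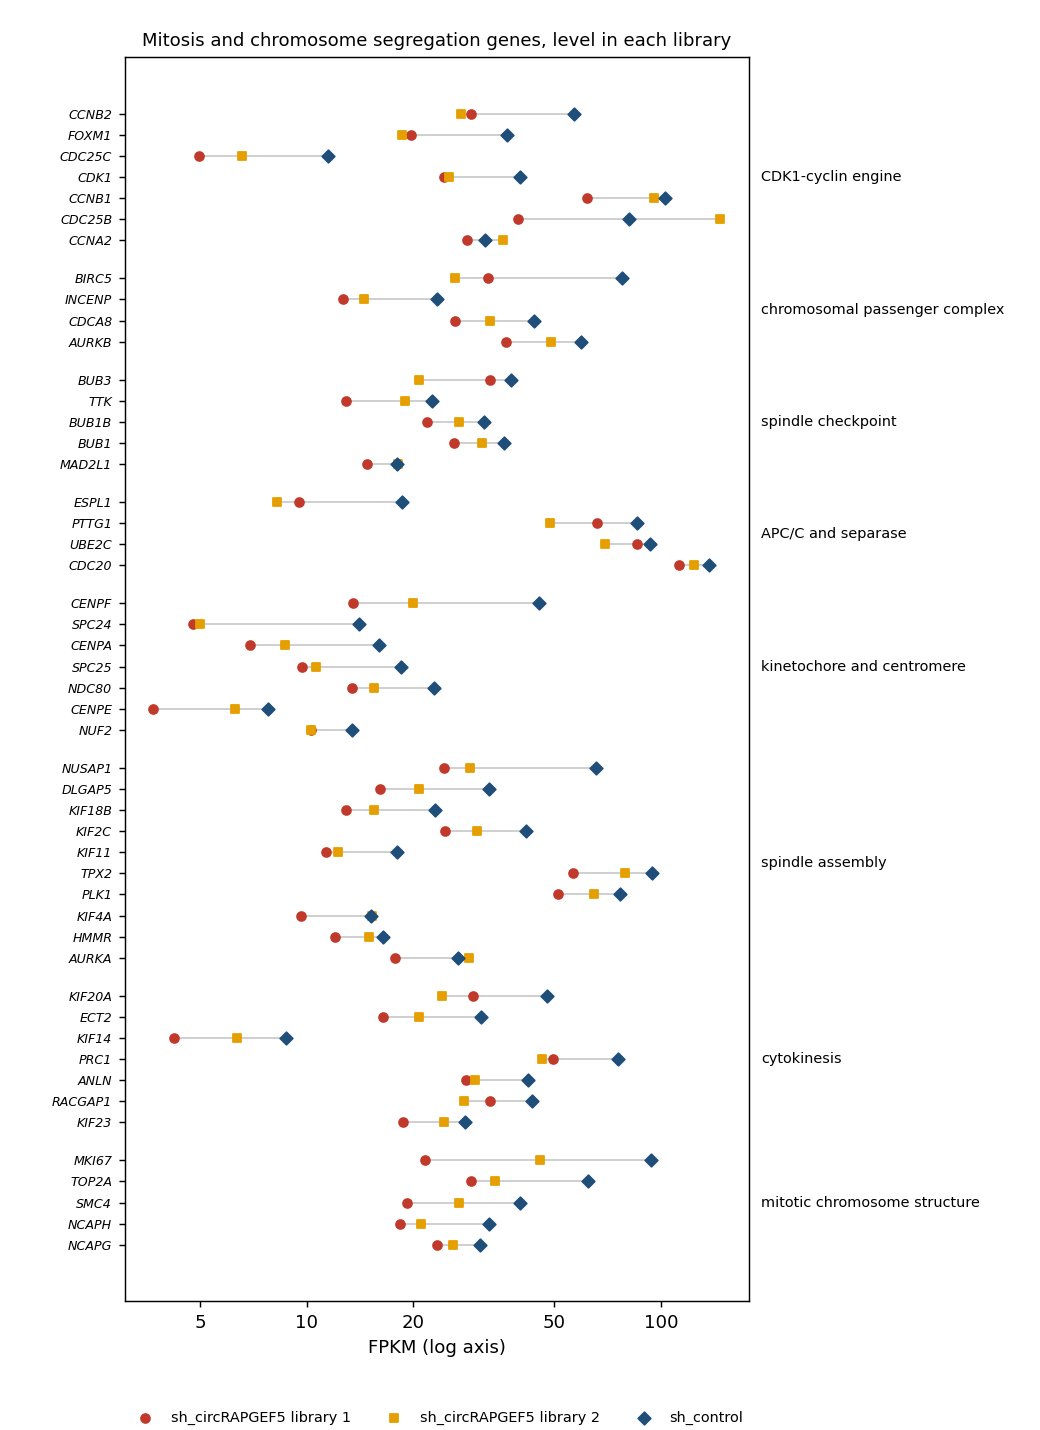
Level of each of the 49 genes in each library, in FPKM on a log axis, grouped by role, with a circle for knockdown library 1, a square for knockdown library 2 and a diamond for the control; grey lines join the values of a gene. The diamond is the rightmost symbol in 44 of 49 rows, and CDC25B has the square far to the right, at 147 FPKM.

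**Figure D2:**
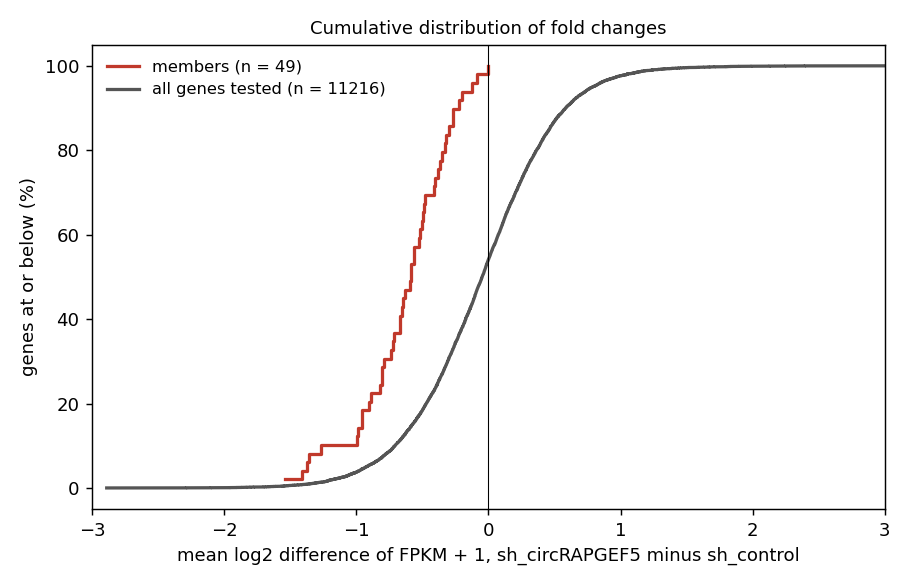
Cumulative share of genes (percent, vertical axis) at or below each mean log2 difference of FPKM + 1 between the knockdown libraries and the control (horizontal axis), for the 49 mitotic genes and for all 11216 genes tested. The curve of the 49 genes lies to the left, with its median at -0.59 against -0.05, and ends at -0.003.

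Among mitotic chromosome structure genes, MKI67, the coat protein of mitotic chromosomes used as a proliferation marker (GENCODE GRCh38, chromosome 10, 128096659 to 128126385, minus strand), was the farthest from the control of the 49. It was at 21.6 FPKM in library 1 and 45.6 FPKM in library 2, against 93.5 FPKM in the control. Its log2 difference was -1.54 ± 0.47 (SE; limma adjusted p 0.519), rank 56 from the low end of all 11216 genes, and library 1 carried much of it (-2.07 against -1.02 in library 2). TOP2A, the topoisomerase that untangles sister DNA, was at 29.1 and 34.0 FPKM against 62.1 FPKM. The condensin genes differed in size: SMC4, an ATPase shared by both condensins, was at 19.2 and 26.9 FPKM against 39.9 FPKM. NCAPH, the subunit that closes the condensin I ring, was at 18.3 and 21 FPKM against 32.8 FPKM, and NCAPG, another subunit, at 23.3 and 25.9 FPKM against 30.9 FPKM. All 5 genes of this role were below the control in both libraries, with a median log2 difference of -0.79.

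The RefSeq promoters of the mitotic genes were compared where one was matched by symbol. Those printed here are from matched genes whose promoter holds a cell cycle homology region (CHR). They belong to the 4 of these genes farthest below the control, by the library nearer to it. The CHR, TTTGAA or TTCGAA on either strand, is the element that the MuvB core binds. CCAAT, on either strand, is the box bound by the factor NF-Y. Sequences run 5′ to 3′ on the strand of the gene, from 250 bases before to 50 after the RefSeq start, with both motifs in capitals. In MKI67 the second CHR and a reversed CCAAT box overlap.
NUSAP1 (RefSeq, GRCh38.p14, chr15:41332631-41332930, plus strand): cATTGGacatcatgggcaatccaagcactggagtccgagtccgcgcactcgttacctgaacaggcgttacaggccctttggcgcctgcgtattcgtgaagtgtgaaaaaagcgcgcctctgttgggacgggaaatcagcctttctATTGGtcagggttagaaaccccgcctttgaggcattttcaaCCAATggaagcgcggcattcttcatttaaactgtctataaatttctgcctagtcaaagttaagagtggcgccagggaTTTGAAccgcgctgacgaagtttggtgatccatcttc
CENPF (RefSeq, GRCh38.p14, chr1:214602945-214603244, plus strand): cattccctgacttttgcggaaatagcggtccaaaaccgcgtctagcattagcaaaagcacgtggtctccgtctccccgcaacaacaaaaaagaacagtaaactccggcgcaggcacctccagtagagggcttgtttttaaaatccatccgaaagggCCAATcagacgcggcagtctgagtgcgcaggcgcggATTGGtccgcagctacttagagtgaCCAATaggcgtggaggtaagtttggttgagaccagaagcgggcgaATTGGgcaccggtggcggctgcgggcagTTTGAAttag
MKI67 (RefSeq, GRCh38.p14, chr10:128126374-128126673, minus strand): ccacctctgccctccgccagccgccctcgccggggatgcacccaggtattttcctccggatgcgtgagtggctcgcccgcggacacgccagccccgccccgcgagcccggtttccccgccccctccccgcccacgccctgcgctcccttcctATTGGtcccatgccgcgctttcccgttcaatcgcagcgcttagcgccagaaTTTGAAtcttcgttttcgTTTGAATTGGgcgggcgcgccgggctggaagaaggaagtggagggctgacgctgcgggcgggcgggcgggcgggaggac
CCNB2 (RefSeq, GRCh38.p14, chr15:59104896-59105195, plus strand): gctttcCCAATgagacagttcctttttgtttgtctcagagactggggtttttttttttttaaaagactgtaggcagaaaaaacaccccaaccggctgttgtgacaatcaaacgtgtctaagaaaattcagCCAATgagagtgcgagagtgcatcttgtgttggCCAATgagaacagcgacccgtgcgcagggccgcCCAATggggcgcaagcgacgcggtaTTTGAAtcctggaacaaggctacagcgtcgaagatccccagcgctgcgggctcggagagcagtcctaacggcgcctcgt

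RefSeq promoters were matched for 41 of the 49 genes. The other 8 were AURKA, BUB3, TPX2, UBE2C, BIRC5, TTK, RACGAP1 and FOXM1, and no motif was searched for them. A CHR was present in 30 of the 41 (73.2%), against 10.6% of 9116 matched promoters of genes tested and 16.6% of 27305 promoters in the table. At least 1 CCAAT box was present in 31 (75.6%), against 37.2% of genes tested and 35.7% of all promoters, and at least 2 boxes in 19 (46.3%), against 14.0% and 11.3%. Both motifs stood together in 24 promoters (58.5%), against 4.60% of genes tested and 6.58% of all. The 40 CHR matches lay near the start, with their first base at a median of -27 counted from the start base as 0, and 32 of them began within 100 bases upstream of it or downstream. CCAAT boxes lay farther upstream, at a median of -74. Among the comparison lists named further on, a CHR was present in 20 of 29 matched promoters of other G2 and mitosis genes, 10 of 22 of other kinetochore genes, 3 of 15 of APC/C core subunits and 2 of 31 of DNA replication genes. Neither motif was found in the windows of 4 genes, CENPE, KIF2C, CDC25B and CDC25C, which says only that these letters are not in this window.

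The 30 genes with a CHR had a median log2 difference of -0.65 (-0.72 in library 1 and -0.54 in library 2), and the 11 matched genes without one had -0.59 (-0.74 and -0.45). The median was -0.67 in the 31 genes with at least 1 CCAAT box (-0.72 and -0.62). In the 10 genes with no box it was -0.56 (-0.73 and -0.41). Of the splits given here, the gap was widest at 2 boxes. None of the splits was tested, and all leave out the 8 unmatched genes. The 19 genes with at least 2 boxes had -0.81 (-0.87 and -0.75), and the 22 genes with fewer had -0.54 (-0.65 and -0.38). The 24 genes with both motifs had -0.67, and the 17 others had -0.59. The 2 sets of each split overlap widely: genes with at least 2 boxes spanned -1.54 to -0.20, and those with fewer -0.99 to -0.003. A motif match is a description of letters and not of binding. The part of either motif in the lower values of the mitotic genes was not tested.

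**Figure D3:**
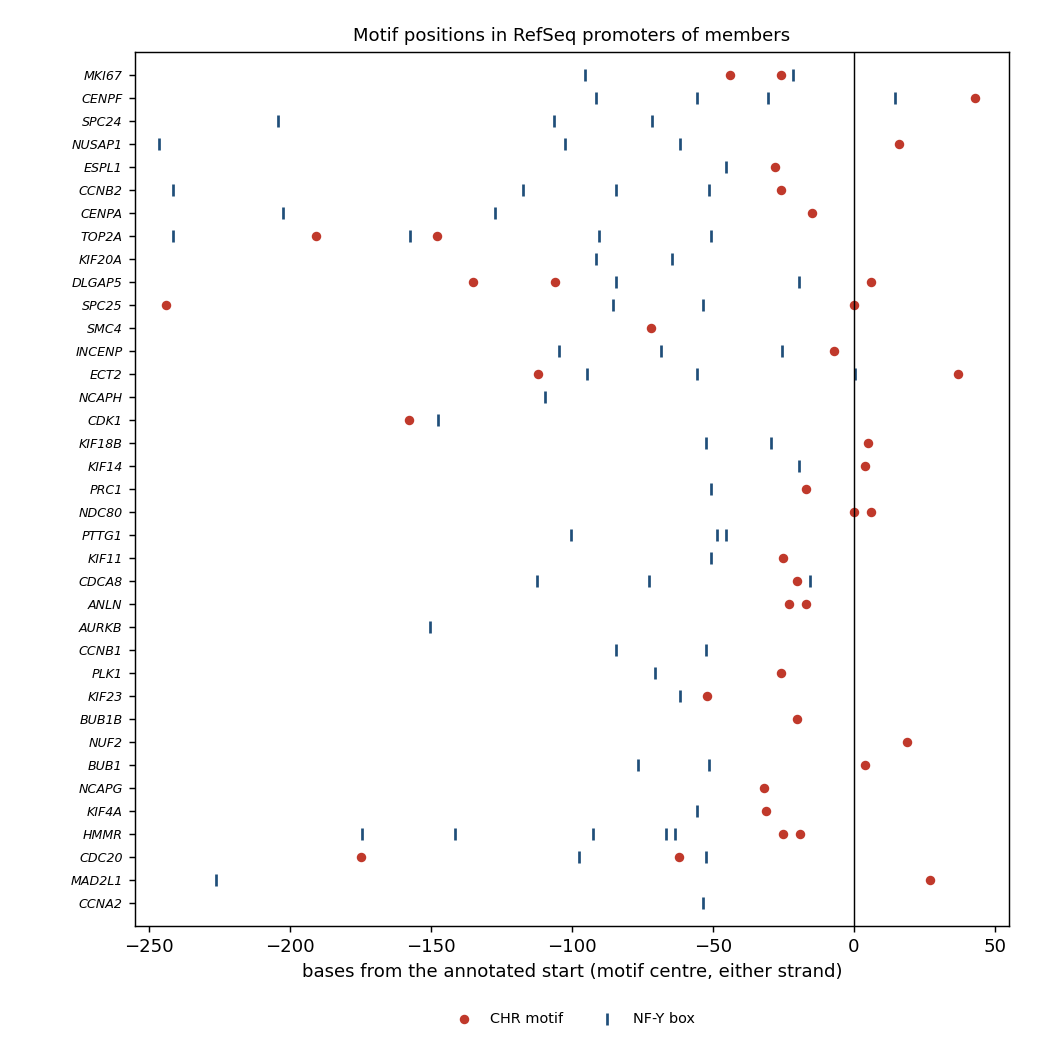
Position of each motif match in bases from the RefSeq start (horizontal axis, motif centre) in the 37 member promoters that hold at least 1 match, ordered from the lowest mean log2 difference at the top; circles are CHR motifs and bars are NF-Y (CCAAT) boxes. Circles gather near the start and bars mostly upstream of them, in genes at the top and at the bottom alike.

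**Figure D4:**
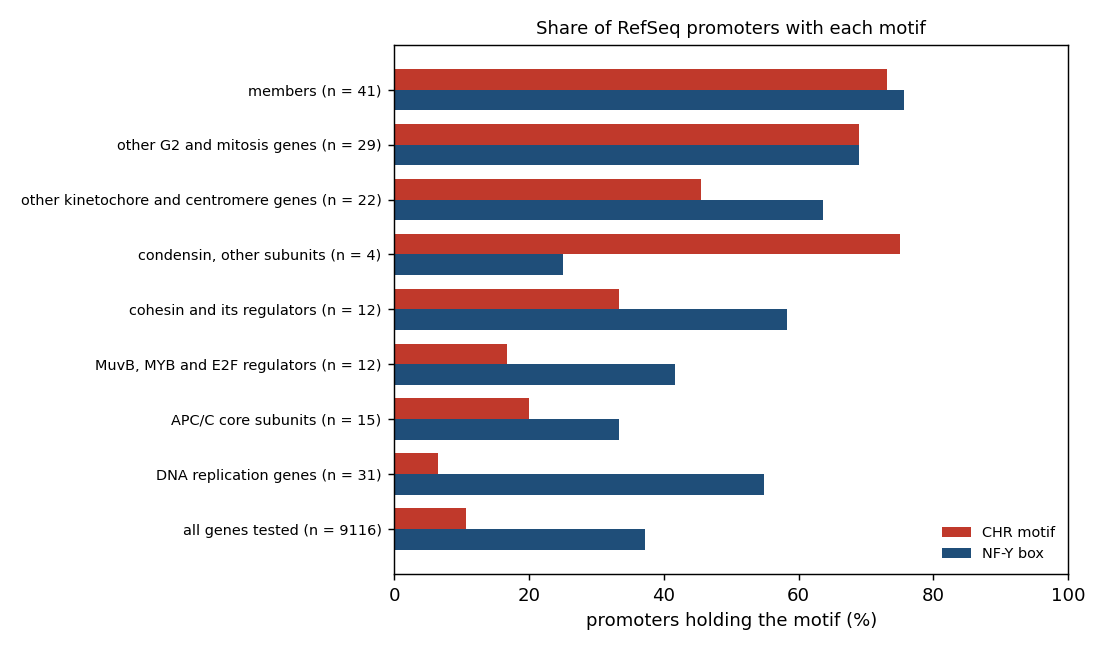
Percent of matched RefSeq promoters that hold a CHR motif or an NF-Y (CCAAT) box, for the 49 genes (41 matched), 7 comparison lists and all genes tested. The CHR is at 73.2% in the 49 genes and at 6.45% in DNA replication genes, while the CCAAT box is at 75.6% and 54.8%.

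The kinetochore and centromere genes were below the control in both libraries in 7 of 7. By the mean of both libraries they had the lowest median of the 8 roles, -0.81. In library 1 the mitotic chromosome structure role was lower (median -1.02 against -0.90). CENPF, a large corona protein of the outer kinetochore (chromosome 1, 214603195 to 214664588, plus strand), was at 13.5 and 19.9 FPKM against 45.3 FPKM, a log2 difference of -1.41 ± 0.42 (SE; limma adjusted p 0.499). Its promoter is the second printed above. CENPE, the kinesin of the same corona, was at 3.69 and 6.26 FPKM against 7.77 FPKM, so that CENPE had 0.272 and 0.314 times the level of CENPF in the knockdown libraries and 0.171 times in the control. CENPA, the histone variant that marks centromeres, was at 6.93 and 8.67 FPKM against 16.0 FPKM. For this gene the knockdown libraries lay closer to each other (log2 difference -0.29) than to the control (-1.10 and -0.82).

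The NDC80 complex, the rod that grips microtubules at the kinetochore, did not keep one proportion among its subunit mRNAs. SPC24, at its inner end, was at 4.77 and 4.99 FPKM against 14.0 FPKM, a log2 difference of -1.36 ± 0.43 (SE; limma adjusted p 0.546). SPC25, its partner, was at 9.68 and 10.6 FPKM against 18.5 FPKM. The microtubule-binding end was nearer to the control, with NDC80 at 13.4 and 15.5 FPKM against 22.8 FPKM and NUF2 at 10.3 and 10.3 FPKM against 13.4 FPKM. NUF2 thus had 2.16 and 2.05 times the level of SPC24 in the knockdown libraries and 0.956 times in the control.

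Survivin, BIRC5, stood apart within the chromosomal passenger complex, which corrects faulty attachments and guides cytokinesis. BIRC5 (chromosome 17, 78214186 to 78225636, plus strand) was at 32.5 and 26.2 FPKM against 77.3 FPKM, with a log2 difference of -1.38 ± 0.40 (SE). The kinase AURKB was at 36.6 and 48.8 FPKM against 59.2 FPKM, the scaffold INCENP at 12.7 and 14.5 FPKM against 23.3 FPKM, and borealin, CDCA8, at 26.2 and 32.8 FPKM against 43.8 FPKM. All 4 were below the control in both libraries. AURKB had 1.13 and 1.86 times the level of BIRC5 in the knockdown libraries and 0.766 times in the control, so their order was turned round.

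In the CDK1-cyclin engine the B-type cyclins parted. CCNB2 was at 29.1 and 27.3 FPKM against 56.9 FPKM, a log2 difference of -0.99 ± 0.39 (SE; limma adjusted p 0.628). CCNB1, the main mitotic cyclin, was at 61.6 FPKM in library 1 but at 95.3 FPKM in library 2, close to the 102 FPKM of the control. Their ratio, CCNB1 over CCNB2, was 2.12 and 3.50 in the knockdown libraries and 1.802 in the control. CDK1 itself was at 24.4 and 25.2 FPKM against 39.99 FPKM, with little between the knockdown libraries.

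FOXM1, the transcription factor that drives many of these genes in G2, was at 19.7 and 18.6 FPKM against 36.8 FPKM (log2 difference -0.91 ± 0.40, SE; limma adjusted p 0.692). Its exons overlap ITFG2 on the opposite strand. MYBL2, which encodes B-MYB and is outside the 49, lay on either side of the control, at 18.7 and 43.65 FPKM against 38.8 FPKM. The phosphatases that switch CDK1 on differed from each other: CDC25C was at 4.97 and 6.56 FPKM against 11.4 FPKM, below the control in both libraries. CDC25B was at 39.5 FPKM in library 1 and 147 FPKM in library 2, on either side of the 81.4 FPKM of the control, the widest gap between the knockdown libraries of all 49. CCNA2, cyclin A2, which works from S phase into early mitosis, was at 28.3 and 35.7 FPKM against 31.9 FPKM, with the mean nearest to the control. The mean log2 differences of CDC25B (-0.09) and CCNA2 (-0.003) turned positive under median-ratio rescaling, so neither has a direction.

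Spindle assembly genes had a median log2 difference of -0.53, with 8 of 10 below the control in both libraries. NUSAP1, which bundles microtubules around chromosomes (chromosome 15, 41332694 to 41381050, plus strand), was at 24.4 and 28.8 FPKM against 65.4 FPKM (log2 difference -1.27 ± 0.40, SE; limma adjusted p 0.530). DLGAP5, a factor that stabilises kinetochore fibres, was at 16.1 and 20.7 FPKM against 32.7 FPKM. The kinesin KIF18B, which trims astral microtubules, was at 12.9 and 15.5 FPKM against 23.0 FPKM. These 3 were the members of the role farthest from the control, and in each the knockdown libraries lay closer to each other than to the control.

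The other kinesins of the spindle were KIF2C, a microtubule depolymerase, at 24.5 and 30.1 FPKM against 41.6 FPKM, and KIF11, the motor that separates spindle poles, at 11.3 and 12.3 FPKM against 17.9 FPKM. KIF4A, a chromokinesin, was at 9.60 FPKM in library 1, while library 2, at 15.3 FPKM, was level with the 15.1 FPKM of the control. The Aurora A module was split between libraries in the same way: AURKA, the spindle pole kinase, was at 17.8 and 28.7 FPKM against 26.7 FPKM. TPX2, which activates AURKA, was at 56.2 and 79.2 FPKM against 93.9 FPKM. PLK1, the polo kinase of mitotic entry and exit, was at 51.0 and 64.8 FPKM against 76.4 FPKM, and HMMR, a spindle pole adaptor, at 12 and 14.99 FPKM against 16.4 FPKM. In these 4 genes library 2 was nearer to the control than library 1, and for AURKA above it.

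By the mean of both libraries, the spindle checkpoint genes lay nearest to the control as a role. Their median was -0.37, and 4 of 5 were below the control in both libraries. In library 1 the APC/C and separase role was nearer (median -0.32 against -0.46). TTK, the kinase that starts the checkpoint signal, was at 12.9 and 18.9 FPKM against 22.5 FPKM. BUB1 was at 26.0 and 31.2 FPKM against 36.1 FPKM and its relative BUB1B, which encodes BUBR1, at 21.8 and 26.9 FPKM against 31.7 FPKM. BUB3, their shared partner, was at 32.8 FPKM in library 1 and 20.7 FPKM in library 2 against 37.8 FPKM, so here library 2 was the lower one. MAD2L1, which sequesters CDC20, was at 14.8 and 18.04 FPKM against 17.9 FPKM. MAD2L1 was at 0.132 and 0.145 times the level of CDC20 in the knockdown libraries and 0.132 times in the control.

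Downstream of the checkpoint, CDC20, the APC/C activator, was the most abundant of the 49 in the control, at 112 and 124 FPKM against 136 FPKM. UBE2C, the ubiquitin-conjugating enzyme of the APC/C, was at 85.3 and 69.6 FPKM against 93.1 FPKM. Separase and its inhibitor differed in size: ESPL1, separase, was at 9.49 and 8.22 FPKM against 18.6 FPKM (log2 difference -0.99 ± 0.42, SE; limma adjusted p 0.660). PTTG1, securin, was at 65.8 and 48.6 FPKM against 85.4 FPKM, which gave 6.93 and 5.92 times the level of ESPL1 in the knockdown libraries and 4.60 times in the control. PTTG1 shares sequence with its copies PTTG2 and PTTG3P and is uncertain. All 4 genes were below the control in both libraries, with a median of -0.43.

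Cytokinesis genes were below the control in 7 of 7, with a median of -0.65 that was alike in library 1 (-0.60) and library 2 (-0.56). KIF20A, the kinesin that carries the passenger complex to the midzone, was at 29.4 and 24.1 FPKM against 47.8 FPKM. ECT2, the exchange factor that switches on RHOA at the cleavage furrow, was at 16.4 and 20.8 FPKM against 31.1 FPKM, and KIF14, a midbody kinesin, at 4.21 and 6.35 FPKM against 8.74 FPKM. PRC1, which crosslinks midzone microtubules, was at 49.6 and 46.3 FPKM against 75.7 FPKM. These were the members farthest from the control.

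ANLN, anillin, the scaffold of the contractile ring, was at 28.1 and 29.9 FPKM against 42.1 FPKM. The centralspindlin subunits differed between libraries in opposite ways, with KIF23 at 18.7 and 24.4 FPKM against 28.0 FPKM and RACGAP1 at 32.8 and 27.8 FPKM against 43.2 FPKM. KIF23 was at 0.569 and 0.877 times the level of RACGAP1 in the knockdown libraries and 0.649 times in the control. Exons of 17 of the 49 genes overlap a gene on the opposite strand in GENCODE release 29, KIF20A among them with BRD8 and CDC23, and without the strand setting their reads and the partner's cannot be told apart. In that release, exons of 4 of the 49 overlap a gene on the same strand, which no strand setting would separate. These 4 are BUB1B, CENPA, NUSAP1 and PRC1. Copies or pseudogenes named after 13 of the 49 are annotated there, which makes those values less certain. The 13 are MKI67, CCNB2, CDC20, AURKA, BUB1, BUB3, KIF18B, UBE2C, RACGAP1, PTTG1, NCAPG, SMC4 and DLGAP5.

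Set against each other, without the control, library 1 was below library 2 in 38 of the 49 genes (77.6%), against 51.1% of all genes tested. The median log2 difference of library 1 from library 2 was -0.25, against -0.02 for all genes. Among these 38 genes, after CDC25B (-1.87), the widest gaps were those of MKI67 (-1.05), AURKA (-0.66), CENPE (-0.63), CCNB1 (-0.62) and KIF4A (-0.62). In the other 11 genes library 1 was the higher one, led by BUB3 (0.64), PTTG1 (0.43), BIRC5 (0.30), UBE2C (0.29) and KIF20A (0.27) and followed by RACGAP1, ESPL1, PRC1, CCNB2, FOXM1 and NUF2. With 1 library on each side this is a description with no test.

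Other genes of the same machinery, 148 in 7 lists, were compared with the control in the same way, and limma called 0 of them. At an unadjusted limma p under 0.05, 22 of the 148 were lower and 1 higher, against 3.99% of all genes on the lower side. For all genes tested, 37.6% lay below the control in both libraries and the median log2 difference was -0.05. Other G2 and mitosis genes lay below the control in both libraries in 32 of 37 cases (median -0.65). Farthest from the control were CIT, citron kinase of the midbody, at 4.58 and 4.55 FPKM against 13.6 FPKM, and STMN1, the microtubule destabiliser stathmin, at 75.4 and 51.2 FPKM against 158 FPKM. Of 29 other kinetochore and centromere genes, 25 were lower in both (median -0.47), led by CENPH, of the inner kinetochore, at 5.99 and 5.40 FPKM against 15.8 FPKM. OIP5, a loader of CENPA, was at 5.29 and 9.08 FPKM against 17.3 FPKM.

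Condensin subunits outside the 49 were lower in both libraries in 4 of 5 (median -0.70), with NCAPG2 at 8.52 and 14.5 FPKM against 23.3 FPKM and NCAPD2 at 69.8 and 40.6 FPKM against 101 FPKM. Cohesin and its regulators, which hold sister chromatids together, were lower in both in 7 of 14 (50%, median -0.24), against 37.6% of all genes. The lowest there were the acetyltransferase ESCO2, at 4.71 and 3.71 FPKM against 9.28 FPKM, and the centromeric protector SGO2, at 3.39 and 5.71 FPKM against 8.44 FPKM.

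The core subunits of the APC/C had a median of 0.01, with 6 of 15 lower in both libraries (40%, against 37.6% of all genes). Higher in both were 7, against 31.7% of all genes, and 3 were lower in both under median-ratio rescaling. ANAPC13 was at 34.0 and 26.3 FPKM against 15.7 FPKM and ANAPC10 at 4.46 and 4.48 FPKM against 2.56 FPKM. Regulators of the MuvB, MYB and E2F kind were lower in both in 8 of 14 (median -0.43), with the repressor E2F7 at 2.65 and 5.12 FPKM against 10.2 FPKM and TFDP2, an E2F partner, at 8.35 and 4.995 FPKM against 12.9 FPKM. DNA replication genes, which are transcribed earlier in the cycle, were lower in both in 24 of 34 (median -0.43, with -0.49 in library 1 and -0.23 in library 2). LIG1, the replicative ligase, was at 21.2 and 15.2 FPKM against 38.4 FPKM, and PRIM1, the primase subunit, at 14.97 and 20.7 FPKM against 34.6 FPKM. Whether the lists differ from the 49 genes was not tested.

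**Figure D5:**
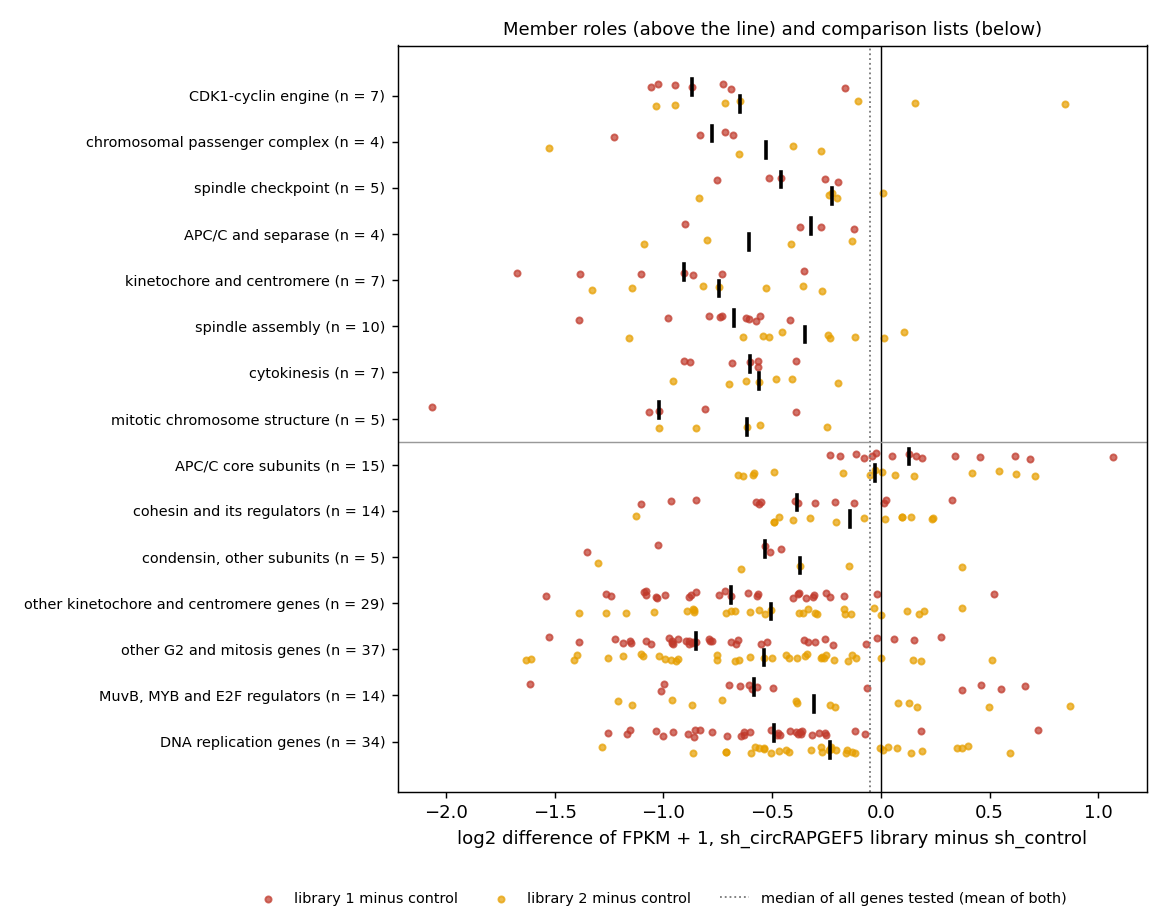
Log2 difference of FPKM + 1 from the control (horizontal axis) of each gene in knockdown library 1 and knockdown library 2, for the 8 roles of the 49 genes (above the grey line) and the 7 comparison lists (below it), with black bars at the medians and a dotted line at the median of all genes tested. The medians of all 8 roles lie left of the dotted line in both libraries, and the APC/C core subunits scatter around it.

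Replication-dependent histones, a possible sign of RNA quality because their main transcripts lack poly(A) tails, were higher as a sum in both knockdown libraries. Of 6 tested, 4 were higher in both libraries and 0 lower in both, and the 10 in the table summed to 127 and 127 FPKM against 68.7 FPKM. The part of RNA quality in the lower values of the mitotic genes was not tested.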

How the data were processed

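RNA-seq libraries of HCT116 cells (2 with shRNA against circRAPGEF5, 1 control) were read from 1 table of FPKM values, which the authors deposited for 15625 genes. Trimmomatic, HISAT2 and GRCh38.p13 are named per the submitters' processing notes; the tools' versions, the counter, its strand setting and gene models were not given in the sources. Ratios of FPKM between libraries were matched by whole-number ratios in 100% of genes (relative tolerance 1e-09) after removing 1 depth factor per library. The search allowed whole numbers so large that nearly any ratio would match, so this share is no test of whole reads. If the values come from whole reads, the smallest such reads are lower bounds.

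Genes with a mean FPKM of at least 1 (11216) were fitted on log2(FPKM + 1) with limma 3.58.1 (trended prior variance; R 4.3.3), knockdown against control, with Benjamini-Hochberg adjustment over all genes and a threshold of 0.05. There is 1 residual degree of freedom, 10.92 prior degrees of freedom were added, and the unreplicated control takes its variance from the knockdown pair. This scale understates fold changes of low genes. Checked on simulated data, limma's adjusted p-values ran too small in this design; no statement rests on a call. Members, roles and lists were chosen with earlier results of these data known. Values per library are given for all 49 genes, for the 2 genes of each comparison list farthest from the control, and for MYBL2. Motifs were searched in RefSeq promoters (GRCh38.p14) and positions taken from GENCODE release 29 (GRCh38), matched by symbol. Alternatives were 2 pseudocounts, 2 filters, 2 scalings, 3 variance models and each knockdown library alone.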

Additional observations from a re-analysis of the deposited data

How the results depend on the processing

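With 1 control library, no alternative setting gives the control an error, and limma has 1 residual degree of freedom. The number of mitotic genes below the control in both libraries was 44 with pseudocounts of 0.1 and 5, with no filter, with a mean FPKM of at least 5 and under median-ratio rescaling, and 45 under quantile normalization; their median ranged from -0.68 (quantile normalization) to -0.51 (pseudocount 5 and median-ratio rescaling), while the median of all genes ranged from -0.06 to 0.03. Over the 9 alternatives, 7 to 11 of the 49 had an unadjusted limma p under 0.05, all lower. The share of all genes reaching it on the lower side ranged from 2.66% (median-ratio rescaling) to 4.99% (no filter). Limma called 0 of the 49 under each of the 9 alternatives. Over all genes it called 2, as also with a pseudocount of 0.1 and a mean FPKM of at least 5, but 1 with a pseudocount of 5, median-ratio rescaling, no trend or robust fitting, and 0 with no filter, quantile normalization or a prior set to 5 degrees of freedom. The 18 genes at least 1.5-fold lower in both libraries became 12 with a pseudocount of 5 and under median-ratio rescaling and 21 under quantile normalization. With no test, library 2 alone had 21 such genes and library 1 alone 33, against 17.4% and 17.6% of all genes. Lower than the control were 44 genes in library 2 alone and 49 in library 1 alone (53% and 52.9% of all genes), with medians of -0.53 and -0.73. Cohesin genes lower than the control numbered 8 in library 2 alone and 11 in library 1 alone, and APC/C core subunits lower in both numbered 3 under median-ratio rescaling. Without library 1, and so with library 2 alone, the log2 differences of AURKA (0.105), KIF4A (0.015), CCNA2 (0.159), MAD2L1 (0.0090) and CDC25B (0.846) turned positive, while library 1 alone gave -0.557, -0.605, -0.165, -0.258 and -1.02 for the same genes. Under median-ratio rescaling CCNA2 (0.085) and CDC25B (0.0012) also turned positive. No paired analysis was possible because the labels tie the lone control library to neither knockdown library.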
